A study of Mus musculus with 15 samples.

Results

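10 genes that hydroxylate collagen or supply the vitamin C this reaction needs were followed in cultured mouse articular chondrocytes, out of 24134 genes listed in each of 2 count tables. They were *Gulo* and *Slc23a2* for the making and uptake of vitamin C, the prolyl 4-hydroxylase subunit genes *P4ha1*, *P4ha2* and *P4ha3*, the lysyl hydroxylase genes *Plod1*, *Plod2* and *Plod3*, and the prolyl 3-hydroxylase genes *P3h1* and *P3h2*. The genes were listed by name, and *Gulo* was chosen by its counts in the IWR-1 and DMSO libraries, where its reads had been seen to appear with the drug. The IWR-1 versus DMSO comparison is therefore given as a description with no test, and so is *Gulo* in every comparison of the drug libraries. All 10 genes passed the filter on low counts in both tables, but in the drug table *Gulo* passed only through the groups in which it was high.

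Primary chondrocytes (passage 0) came from the femoral condyles and tibial plateaus of 4- to 5-day-old ICR mice, an outbred strain, and all groups grew in DMEM with 10% fetal bovine serum and antibiotics. Ascorbate is not named among the additives of this medium in the sources used here. The drug table held 9 libraries, 3 each from cells kept for 108 h with DMSO (the solvent), with 10 µM XAV939 or with 10 µM IWR-1, 2 small molecules that block the tankyrases by binding different pockets of their catalytic domain. The siRNA table held 6 libraries, 3 from cells transfected with control siRNA (siCtrl) and 3 from cells given siRNAs against both tankyrase genes (siTnks/2), with no time stated. How many mice each replicate came from is not given in the sources used here. The comparisons asked how the hydroxylation machinery stood when tankyrase was lowered or blocked, each treatment against the control of its own table.

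Collagen chains are hydroxylated in the endoplasmic reticulum before they fold. Prolyl 4-hydroxylase, built from an alpha subunit (*P4ha1*, *P4ha2* or *P4ha3*) and the beta subunit *P4hb*, makes the 4-hydroxyproline that keeps the triple helix stable at body temperature, lysyl hydroxylases prepare the residues used for sugar attachment and for cross-links between fibrils, and prolyl 3-hydroxylases modify a few selected prolines. All of them need iron, oxygen, 2-oxoglutarate and ascorbate, which most cells take up through the sodium-dependent transporter *Slc23a2* and which mice, unlike humans, make mainly in the liver with *Gulo* as the last enzyme.

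Library totals ran from 26857070 to 31254278 counts in the siRNA table and from 27438611 to 36615194 in the drug table. Both targets of the siRNAs were lower after knockdown, *Tnks* by a log2 fold change of -1.81 (SE 0.22, edgeR adjusted p = 0.00569) and *Tnks2* by -1.10 (SE 0.11, adjusted p = 0.00384). Chondrocyte markers were abundant in every library, with 829596 to 5292352 counts summed over 11 genes and *Col2a1* the highest. Markers of other lineages held 23 to 79 counts over 8 hepatocyte genes, 117 to 498 over 7 leukocyte genes, 8 to 183 over 4 endothelial genes, 1342 to 4013 over 4 osteoblast genes and 0 to 24 over 3 adipocyte genes. One library stood apart: siTnks/2 replicate 2 held 89 counts of *Pecam1* and 64 of *Cdh5*, both endothelial genes, against at most 7 and 3 in any other library, and results that turn on it are given with and without it.

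Windows before an annotated start of 3 hydroxylase genes are shown because these genes were lower with XAV939. Genes of this family are also textbook targets of the hypoxia-inducible factors, whose core binding letters include ACGTG. Only this form was searched, so GCGTG, which all 3 windows also hold, is not marked. The windows cover the 250 bases before an annotated start in RefSeq on GRCm38.p6 (mm10), read 5′ to 3′ on the strand of the gene, with ACGTG or its reverse complement CACGT in capitals.
*P4ha1*, chr10:59323046-59323295, plus strand: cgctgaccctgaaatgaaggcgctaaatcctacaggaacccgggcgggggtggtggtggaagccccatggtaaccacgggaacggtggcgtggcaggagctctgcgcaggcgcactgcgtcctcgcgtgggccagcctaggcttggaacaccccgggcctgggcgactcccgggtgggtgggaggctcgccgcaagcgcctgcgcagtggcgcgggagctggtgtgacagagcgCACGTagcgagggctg
*P4ha2*, chr11:54100674-54100923, plus strand: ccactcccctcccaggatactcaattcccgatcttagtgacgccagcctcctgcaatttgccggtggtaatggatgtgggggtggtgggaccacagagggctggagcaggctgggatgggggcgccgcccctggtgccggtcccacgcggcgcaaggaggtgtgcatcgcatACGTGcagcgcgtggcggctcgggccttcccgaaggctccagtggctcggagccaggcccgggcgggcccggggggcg
*Plod1*, chr4:147936777-147937026, minus strand: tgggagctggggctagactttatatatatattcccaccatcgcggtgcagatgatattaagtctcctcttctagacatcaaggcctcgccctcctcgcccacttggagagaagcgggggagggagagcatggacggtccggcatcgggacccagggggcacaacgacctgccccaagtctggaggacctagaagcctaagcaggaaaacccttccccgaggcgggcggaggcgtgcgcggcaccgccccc
The match began 16 bases before the annotated start in *P4ha1* and 78 bases before it in *P4ha2*, and *Plod1* held no match to the searched form. The *P4ha1* window reaches into the gene span given below, and its match lies inside that span. Of the other genes with a window, *Plod3* held 1 match, 54 bases before the start. *P3h1* held 2 in one of its windows, 31 and 19 bases before that start, and none in the other. The *P3h1* window with the matches lies inside the gene span given below. *P4ha3* and *Slc23a2* held none. On either strand ACGTG occurred in 16.6% of 32851 windows of this length over all genes, so a match is common and describes the letters only. Windows for *Gulo*, *Plod2* and *P3h2* were not analysed here.

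Levels were compared between genes as CPM (counts scaled by library size to a common total) per kilobase of annotated exons. *Plod2* was the highest of the 10 genes in DMSO, at 225 ± 21.8 CPM per kb (SD, n = 3), followed by *P4ha1* at 187 ± 0.226, *P4ha2* at 157 ± 19.3 and *Plod1* at 121 ± 12.4. Each of these stood apart from its neighbor in the order, whereas *P3h1* (74.8 ± 2.29) and *Plod3* (71.2 ± 7.96) overlapped. *Slc23a2* (20.5 ± 5.57), *P3h2* (4.46 ± 0.979) and *P4ha3* (1.78 ± 0.266) followed, and *Gulo* was last in all 5 groups. In siCtrl the order began with *Plod2* (158 ± 7.86), *P4ha1* (132 ± 6.53) and *P3h1* (111 ± 10.2), with *P4ha2* (64.6 ± 9.98) overlapping *Plod3* (76.0 ± 7.44) and *Plod1* at 48.8 ± 5.50. The tables were scaled separately, so levels are read within a table.

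**Figure D1:**
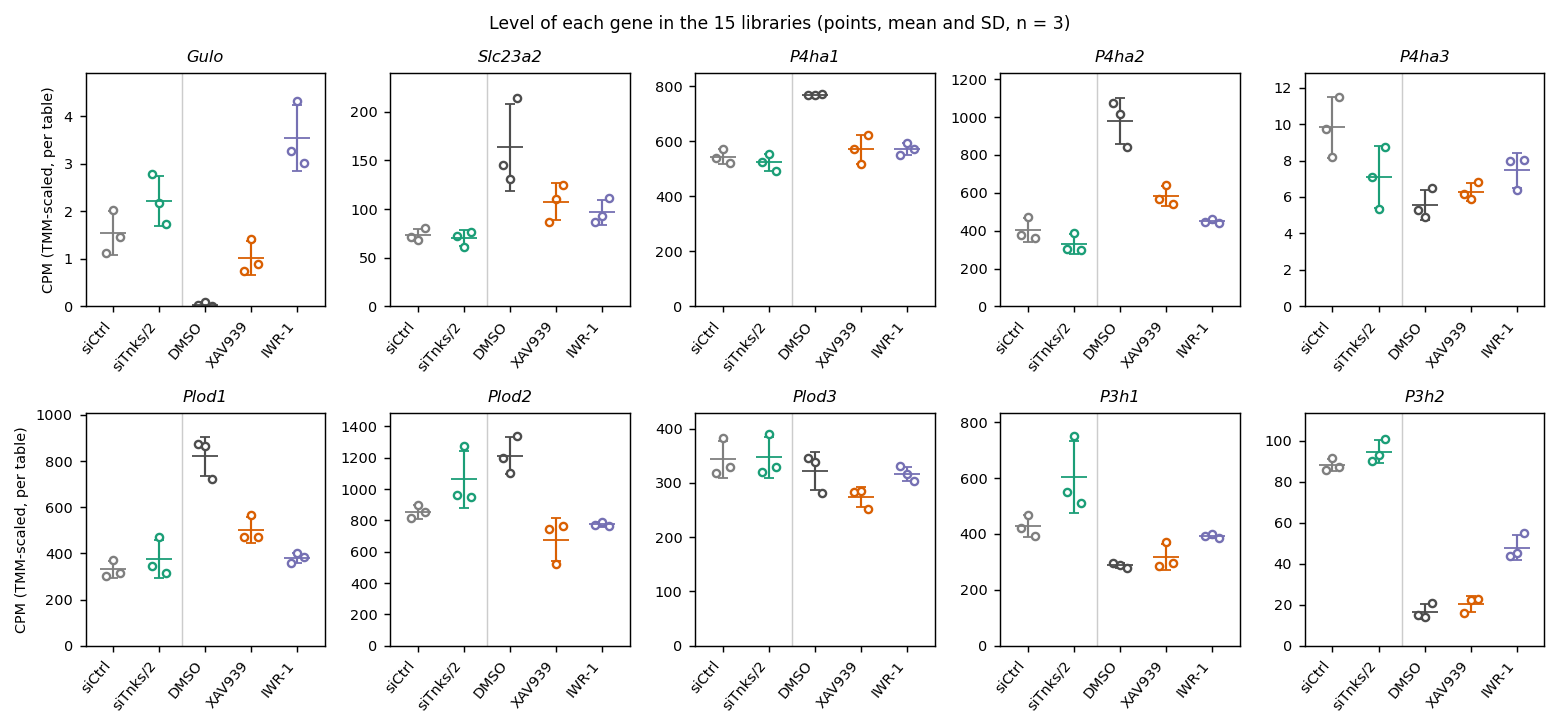
CPM of the 10 genes in the 15 libraries, scaled within each table, with open points for single libraries and bars for the mean and SD of 3 libraries per group, each axis starting at 0 and a gray line between the siRNA and drug tables. *Gulo* is near 0 in DMSO and highest in IWR-1, *P4ha1*, *P4ha2*, *Plod1* and *Plod2* are lower with both drugs than in DMSO, and siTnks/2 replicate 2 is the highest library of its group for *Plod2* (1274 CPM) and *P3h1* (749 CPM).

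*Gulo* (Entrez 268756, chr14:65986786-66009254, minus strand), the last enzyme of ascorbate synthesis, was almost without reads in DMSO and had some with either drug. Its counts were 1, 3 and 0 in the DMSO libraries, 28, 38 and 29 in XAV939 and 113, 135 and 104 in IWR-1. The 3 drug groups did not overlap, and IWR-1 was highest. In CPM the libraries lay at 0.0305, 0.0873 and 0 in DMSO, where 0 counts allow up to 0.0943 CPM, at 0.755, 1.43 and 0.895 in XAV939, and at 3.28, 4.33 and 3.02 in IWR-1. From pooled counts scaled by library size the ratio to DMSO was 24.4 with XAV939 and 87.1 with IWR-1, and IWR-1 stood at 3.56 times XAV939. The ratios to DMSO rest on 4 DMSO reads in all, the last ratio on 352 and 95 reads. Reads carry no molecular identifiers. As *Gulo* was chosen by its IWR-1 and DMSO counts, the ratios are a description and carry no test. Even in IWR-1, *Gulo* reached only 1.57 ± 0.308 CPM per kb (SD, n = 3), below the next gene, *P4ha3*, at 2.38 ± 0.305.

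In the siRNA table *Gulo* was present in the controls. Its counts were 36, 55 and 48 in siCtrl and 80, 61 and 53 in siTnks/2, and the groups overlapped. The log2 fold change after knockdown was 0.54 (SE 0.28, edgeR adjusted p = 0.218), which did not pass the test. It was 0.56 without siTnks/2 replicate 2 (adjusted p = 0.245) and, leaving out other single libraries, 0.35 without siTnks/2 replicate 1, 0.36 without siCtrl replicate 1 and 0.78 without siCtrl replicate 2, with adjusted p from 0.133 to 0.492.

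*Gulo* is known mainly from liver, so hepatocyte markers were read beside it. Of 8 hepatocyte markers, *Ttr* and *Tat* were at 0 in every library and 7 had at most 10 counts in each; *Hpx* was the exception with 17 to 71. Their summed level was 1.80 to 2.30 CPM in DMSO, 1.85 to 2.33 in XAV939 and 1.01 to 1.83 in IWR-1. For the chondrocyte markers summed CPM ran from 26004 to 35508 in DMSO, 35556 to 55087 in XAV939 and 84376 to 108946 in IWR-1, and the part of either cell type in the level of *Gulo* was not tested. In such bulk samples, more cells of a kind and more RNA per cell cannot be told apart.

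The coding genes beside *Gulo* on chromosome 14 were read for comparison. *Clu*, which encodes the extracellular chaperone clusterin and lies 5238 bases away, stood at 249 ± 83.2 CPM in DMSO, 327 ± 70.9 in XAV939 and 91.0 ± 8.41 in IWR-1 (SD, n = 3), thus lowest where *Gulo* was highest. After knockdown *Clu* rose (log2 fold change 1.36, SE 0.19, edgeR adjusted p = 0.00822). On the other side *Adam2*, a sperm surface gene, was listed at 0 in every library, and *Ephx2*, an epoxide hydrolase, stood at 1.42 ± 0.501 CPM in DMSO, 1.92 ± 0.218 in XAV939 and 1.81 ± 0.496 in IWR-1. *Scara3*, a scavenger receptor gene beyond *Clu*, stood at 88.5 ± 12.6, 92.3 ± 5.27 and 54.9 ± 8.93 CPM in the same order. The genes whose log2 CPM followed *Gulo* most closely over the 9 drug libraries were *Lrrc75b* (Pearson r = 0.993), *Mall* (0.991) and *Uap1l1* (0.990). All 9 points share their 3 groups, so these values describe the group pattern and carry no test.

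*Slc23a2* (Entrez 54338, chr2:132052496-132145320, minus strand), the ascorbate transporter SVCT2, moved the other way with the drugs. Its CPM were 145, 131 and 214 in DMSO, 87.0, 110.5 and 125 in XAV939, and 86.2, 92.9 and 111 in IWR-1. Every drug library lay below every DMSO library, with DMSO replicate 3 far above the other two. The XAV939 log2 fold change was -0.60 (SE 0.19) and missed the threshold (edgeR adjusted p = 0.0545). It was -0.37 without DMSO replicate 3 (adjusted p = 0.150), and it passed without DMSO replicate 2 (-0.74, adjusted p = 0.0295) or XAV939 replicate 3 (-0.74, adjusted p = 0.0442). With the replicate number as a block, which compares libraries of the same number, it passed at -0.59 (adjusted p = 0.00188). With IWR-1 the difference was -0.76 (SE 0.19). Knockdown left it at 71.2, 68.6 and 80.0 CPM in siCtrl and 72.5, 60.7 and 76.6 in siTnks/2, a log2 difference of -0.07 (SE 0.10, adjusted p = 0.681) whose sign changed when single libraries were left out. Its span overlaps that of *Gm14051*.

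Other genes of the vitamin C route, 15 in the list and 12 tested, had 1 higher and 6 lower with XAV939. Among all genes 17.4% passed the test in that comparison, 7.57% higher and 9.85% lower. *Slc2a3* and *Slc2a1* (the latter also in the hypoxia target list), glucose transporters that also carry the oxidized form of the vitamin, were lower with log2 fold changes of -2.04 (SE 0.13, edgeR adjusted p = 1.83e-05) and -0.93 (SE 0.11, adjusted p = 0.000451). *Ugdh*, which acts on the UDP-glucose from which the route starts, fell by 0.95 (SE 0.16, adjusted p = 0.00248). *Gsto1*, a transferase that can reduce dehydroascorbate, rose by 0.77 (SE 0.15, adjusted p = 0.00686). The median log2 fold change of the list was -0.56, against 0.02 over all genes. After knockdown 1 rose (*Ugp2*, 0.27) and 1 fell (*Ugdh*, -0.49), beside 10.4% and 7.61% of all genes, with a median of -0.02 against 0.00 over all genes. In the list *Rgn*, the step before *Gulo*, had 0 to 5 reads per library. The transporter *Slc23a1* had 0 to 6 reads, and *Slc2a2* was listed at 0. Other genes of the route were abundant. Mean CPM of *Akr1a1* was 528 in DMSO, 534 in XAV939, 535 in IWR-1, 501 in siCtrl and 500.1 in siTnks/2.

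The prolyl 4-hydroxylase subunits *P4ha1* and *P4ha2* fell with XAV939 and *P4ha3* did not pass the test. *P4ha1* (Entrez 18451, chr10:59323197-59373304, plus strand), the subunit of the main collagen enzyme, stood at 768, 769 and 770.0 CPM in DMSO, 572, 518 and 621 in XAV939, and 550.3, 594 and 572 in IWR-1. All drug libraries lay below all DMSO libraries, and DMSO replicates were almost equal. The change with XAV939 was -0.43 (SE 0.10, edgeR adjusted p = 0.0166), and it no longer passed in a fit of these 2 groups alone (adjusted p = 0.0586), without DMSO replicate 1 (0.0603) or without XAV939 replicate 1 (0.0545). With IWR-1 the difference was also -0.43 (SE 0.10). Knockdown gave -0.05 (SE 0.07, adjusted p = 0.638), with 539.7, 572 and 519 CPM in siCtrl and 523, 555 and 493 in siTnks/2.

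*P4ha2* (Entrez 18452, chr11:54100924-54131668, plus strand), the alternative alpha subunit that is prominent in cartilage, showed the lower levels more strongly. It stood at 1076, 1017 and 844 CPM in DMSO, 566, 644 and 543 in XAV939, and 446, 459.6 and 443 in IWR-1. The 3 groups did not overlap, and IWR-1 was lowest. XAV939 lowered it by a log2 fold change of -0.74 (SE 0.12, edgeR adjusted p = 0.00233), and the IWR-1 difference was -1.12 (SE 0.12). After knockdown it was 376, 475 and 359.6 CPM in siCtrl and 305, 389.7 and 297 in siTnks/2. The groups overlapped, but each knockdown library lay below the control of the same number. The difference of -0.29 (SE 0.14, adjusted p = 0.205) passed with the replicate block (adjusted p = 0.00961) and without siTnks/2 replicate 2 (-0.42, adjusted p = 0.0486).

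*P4ha3* (Entrez 320452, chr7:100285489-100319701, plus strand), the least abundant alpha subunit, stood at 5.28, 4.92 and 6.51 CPM in DMSO, 6.14, 5.89 and 6.82 in XAV939 and 7.99, 6.36 and 8.03 in IWR-1. These groups overlapped, with a change of 0.18 with XAV939 (SE 0.16, edgeR adjusted p = 0.471) and a difference of 0.42 (SE 0.16) with IWR-1. In the siRNA table it went from 9.74, 8.20 and 11.5 CPM to 7.11, 5.35 and 8.75. Again each knockdown library was below its same-numbered control, and the difference of -0.47 (SE 0.21, adjusted p = 0.151) passed only with the replicate block (-0.48, adjusted p = 0.0158).

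Among the lysyl hydroxylases, *Plod1* and *Plod2* fell with XAV939. *Plod1* (Entrez 18822, chr4:147909753-147936776, minus strand), which acts on helical lysines, stood at 875, 863 and 724 CPM in DMSO, 469, 565 and 471 in XAV939, and 357, 399.5 and 384 in IWR-1. The groups followed one another without overlap. The XAV939 change was -0.71 (SE 0.12, edgeR adjusted p = 0.00298), and the IWR-1 difference was -1.11 (SE 0.12). In the siRNA table the values were 304, 373 and 314 CPM in siCtrl and 347, 471 and 315 in siTnks/2, with a difference of 0.19 (SE 0.16, adjusted p = 0.428) that was 0.00 without siTnks/2 replicate 2.

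*Plod2* (Entrez 26432, chr9:92539636-92608428, plus strand) hydroxylates telopeptide lysines and so leads to the stable cross-links of cartilage and bone. It stood at 1201, 1103 and 1337 CPM in DMSO, 747, 520.4 and 764 in XAV939, and 769.8, 791 and 764 in IWR-1. Both drugs left every library below DMSO, with XAV939 replicate 2 the lowest. The XAV939 change was -0.84 (SE 0.15, edgeR adjusted p = 0.00396) and -0.68 without that library (adjusted p = 0.00549), and the IWR-1 difference was -0.65 (SE 0.15). After knockdown it lay higher, at 963, 1274 and 949 CPM against 812, 897 and 854 in siCtrl. The groups did not overlap, but the difference of 0.31 (SE 0.13) did not pass (adjusted p = 0.127). It passed with the replicate block (0.30, adjusted p = 0.0392), and was 0.16 without siTnks/2 replicate 2 (adjusted p = 0.126). Its span overlaps that of *B430319G15Rik*.

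*Plod3* (Entrez 26433, chr5:136987019-136996646, plus strand), which also carries glycosyltransferase activity, did not pass any test. It ranged from 281 to 346 CPM in DMSO, 252 to 285 in XAV939, 304 to 330.4 in IWR-1, 319 to 382 in siCtrl and 320.4 to 391 in siTnks/2. The XAV939 difference was -0.23 (SE 0.11, edgeR adjusted p = 0.171), the IWR-1 difference -0.02 (SE 0.11), and the knockdown difference 0.02 (SE 0.11, adjusted p = 0.930), whose sign changed when single libraries were left out. Its span overlaps that of *Znhit1*.

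Neither prolyl 3-hydroxylase passed the test with XAV939, and both lay above DMSO with IWR-1. *P3h1* (Entrez 56401, chr4:119232915-119248977, plus strand), which works in a complex with *Crtap* and *Ppib*, stood at 295, 289 and 278 CPM in DMSO, 286, 370 and 295 in XAV939, and 393, 399 and 387 in IWR-1. XAV939 libraries overlapped DMSO, with a difference of 0.14 (SE 0.11, edgeR adjusted p = 0.423), whereas all IWR-1 libraries were above both, by 0.45 (SE 0.11) over DMSO. Knockdown libraries, at 552, 749 and 510 CPM, all lay above siCtrl, at 421, 469.6 and 392. The difference of 0.50 (SE 0.15, adjusted p = 0.0638) did not pass, but it did with the replicate block (0.48, adjusted p = 0.00884), with DESeq2 (adjusted p = 0.0132), without siTnks/2 replicate 2 (0.31, adjusted p = 0.0474) and without siTnks/2 replicate 3 (0.61, adjusted p = 0.0446).

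*P3h2* (Entrez 210530, chr16:25959284-26105813, minus strand), which is best known for basement membrane collagen, was low in DMSO at 15.2, 13.8 and 20.7 CPM, overlapped this range in XAV939 at 16.0, 22.5 and 22.9, and was higher in IWR-1 at 43.7, 45.1 and 55.0. Only the IWR-1 libraries stood clear of DMSO, by a log2 difference of 1.53 (SE 0.18). With XAV939 the difference was 0.30 (SE 0.18, edgeR adjusted p = 0.283). In the siRNA table it was 85.9, 91.7 and 87.1 CPM in siCtrl and 90.2, 93.0 and 101 in siTnks/2, a difference of 0.10 (SE 0.06, adjusted p = 0.287).

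**Figure D2:**
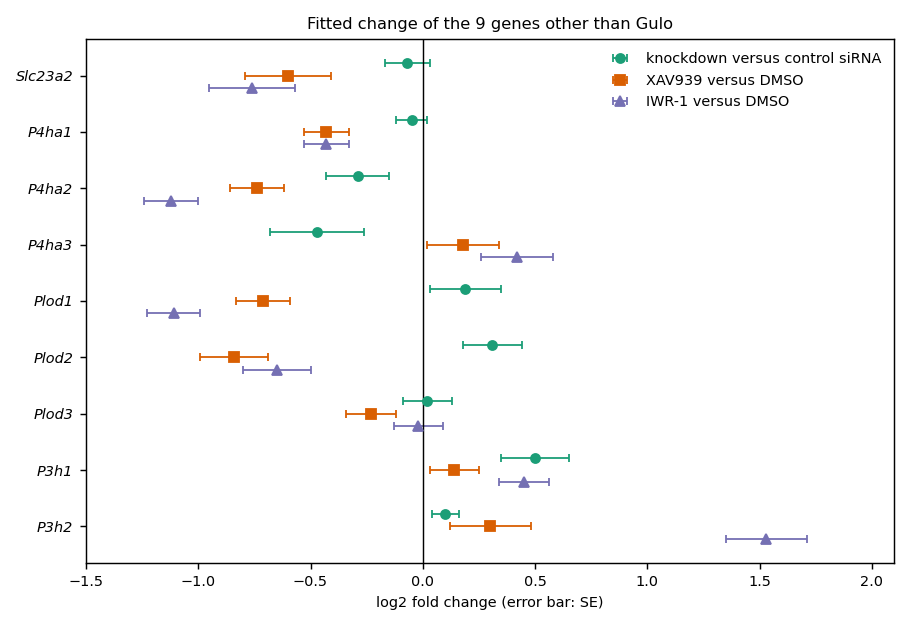
Fitted log2 fold change with its SE for the 9 genes other than *Gulo* in 3 comparisons (circles, knockdown; squares, XAV939; triangles, IWR-1), 3 libraries per group. *P4ha1*, *P4ha2*, *Plod1* and *Plod2* lie below 0 with both drugs, from -0.43 to -1.12, *P3h2* stands at 1.53 with IWR-1, and the knockdown values lie between -0.47 and 0.50; both drug comparisons share the DMSO libraries.

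Counted over the genes, 4 of 9 other than *Gulo* passed with XAV939, all lower, where 17.4% of 13873 genes passed and 9.85% were lower. Their median log2 fold change was -0.43, against 0.02 over all genes, and 5 of 9 lay wholly below DMSO, as did 16.8% of all genes. After knockdown 0 of 10 passed in edgeR, where 18.0% of 13672 genes did, 10.4% higher and 7.61% lower, although 2 (*Plod2* and *P3h1*) had an unadjusted p under 0.05. The same 2 genes lay wholly above siCtrl, where 43.8% of all genes did not overlap. DESeq2 called 1 (23.2% of all genes), and the replicate block called 4, *P3h1* and *Plod2* higher and *P4ha2* and *P4ha3* lower, where the block called 34.6% of all genes, 18.1% higher and 16.5% lower. The knockdown median was 0.06, against 0.00. With IWR-1, as a description from which nothing is read, 2 of 9 lay wholly above DMSO and 5 wholly below, beside 24.7% and 26.4% of all genes. Markers of cell types moved in the same libraries. Chondrocyte markers had 3 of 11 higher with XAV939 (10 with the block) and 4 of 11 higher after knockdown (8 with the block), and none lower. Of all genes, 7.57% were higher with XAV939 and 10.4% after knockdown. The block called 2220 of 13873 genes higher with XAV939 and 18.1% after knockdown. Of 4 osteoblast markers, 3 were tested with XAV939 and 2 were higher, *Sp7* (1.65, edgeR adjusted p = 0.000168) and *Bglap* (1.91, adjusted p = 0.00687). After knockdown 0 of 4 passed in the main fit. All 4 log2 fold changes were positive there, and the block called 2 higher, beside 18.1% of all genes. The 4 osteoblast markers summed to 42.2 to 65.3 CPM in DMSO, 56.5 to 65.7 in XAV939, 42.2 to 60.6 in IWR-1, 59.3 to 70.9 in siCtrl and 76.1 to 131 in siTnks/2. Leukocyte markers summed to 11.4 to 15.6 CPM in DMSO, 11.9 to 15.4 in XAV939 and 6.69 to 9.31 in IWR-1, and to 4.32 to 6.10 in siCtrl and 5.20 to 5.91 in siTnks/2, and 0 of them passed with XAV939 (1 with the replicate block) or after knockdown. Between the drugs *Cd68* and *Lyz2* of this list were lower with IWR-1 (-0.84, edgeR adjusted p = 0.00763, and -0.69, adjusted p = 0.0284), as was the endothelial marker *Tek* (-2.01, adjusted p = 0.0102). The *Tek* change rests on few reads, as all 4 endothelial markers summed to 0.413 to 0.864 CPM in XAV939 and 0.233 to 0.353 in IWR-1. The part of these cell types in the levels of the 10 genes was not tested.

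XAV939 and IWR-1 were given at the same dose and for the same time, so their readouts could be set against each other in 1 pair of compounds. For 2 of 9 genes the compounds differed, where 17.6% of all genes passed. *P3h2* was higher with IWR-1 by a log2 fold change of 1.23 (SE 0.18, edgeR adjusted p = 0.00137). *Plod1* was lower with IWR-1 by -0.40 (SE 0.12, adjusted p = 0.0445), a call lost when any one library other than DMSO replicate 3 was left out (-0.30 to -0.45). With the replicate block 4 passed, where the block called 30.7% of all genes, since *P4ha2* (-0.37, adjusted p = 0.0135) and *P3h1* (0.32, adjusted p = 0.0293) were added. *P4ha1* differed by 0.00, with a range of 2 SE from -0.20 to 0.21, and the ranges of the others were -0.54 to 0.23 for *Slc23a2*, -0.07 to 0.56 for *P4ha3*, -0.11 to 0.50 for *Plod2* and -0.01 to 0.43 for *Plod3*. These intervals do not show that the compounds act alike on these genes.

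The XAV939 effect was set against the knockdown effect in 1 model over all 15 libraries. It differed for 2 of 9 genes, where 13.5% of 14271 genes passed. *Plod2* had an effect lower by 1.17 on the log2 scale with XAV939 than with knockdown (-1.17, SE 0.21, edgeR adjusted p = 0.00289), and *Plod1* an effect lower by 0.92 (-0.92, SE 0.21, adjusted p = 0.0101). With the replicate block 6 passed, where 28.2% of all genes did, adding *Slc23a2* (-0.53, adjusted p = 0.0154), *P4ha1* (-0.39, 0.0210), *P4ha2* (-0.47, 0.0116) and *P4ha3* (0.65, 0.00866). The kind of treatment, its control and the table changed together, so they cannot be told apart.

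Within each family the make-up was read as shares of reads per kb of exons. *P4ha2* held 45.3% ± 3.18 (SD, n = 3) of the alpha subunit reads in DMSO, 40.0% ± 4.29 in XAV939 and 33.8% ± 0.544 in IWR-1, with *P4ha1* taking up the rest but for at most 1.23% from *P4ha3*. DMSO and XAV939 overlapped in this share (exact permutation p = 0.2, two-sided, 0.1 being the smallest that 3 against 3 allows). *Plod2* held 53.9% ± 4.90 of the lysyl hydroxylase reads in DMSO, 48.0% ± 7.25 in XAV939 and 53.2% ± 0.0886 in IWR-1. In the siRNA table it held 56.0% ± 1.43 in siCtrl and 59.7% ± 0.437 in siTnks/2, without overlap (exact permutation p = 0.1). *P3h2* held 5.64% ± 1.32 of the prolyl 3-hydroxylase reads in DMSO, 6.27% ± 1.02 in XAV939 and 11.2% ± 1.40 in IWR-1, and 17.6% ± 0.959 in siCtrl against 14.3% ± 2.79 in siTnks/2 (exact permutation p = 0.2).

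**Figure D3:**
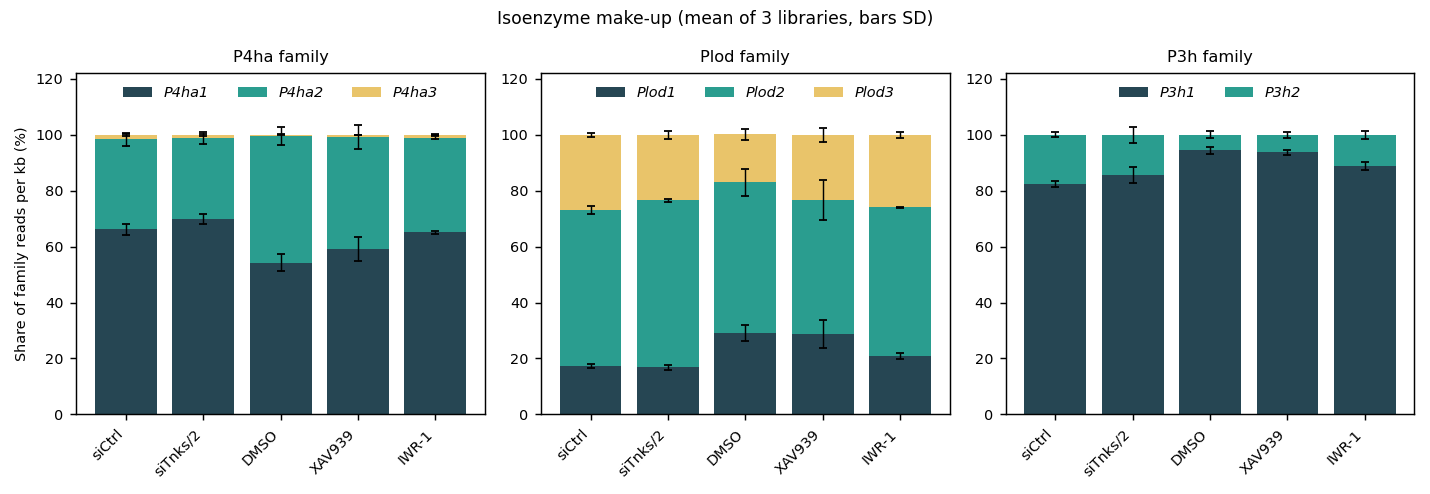
Share of each isoenzyme in the reads per kb of its family (%), stacked, mean of 3 libraries per group with the SD as error bars at the top of each segment. The *P4ha2* segment is widest in DMSO (45.3%) and narrower in IWR-1 (33.8%), and the *P3h2* segment is 5.64% in DMSO and 11.2% in IWR-1.

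Reads of the enzymes were also set against those of the collagen genes, their substrates. The 8 hydroxylase genes together took 4262 to 4582 CPM in DMSO, 2931 to 2975 in XAV939 and 2898 to 3010.1 in IWR-1, so both drugs lay below DMSO. Reads on 20 collagen genes were 4.77% to 5.59% of the library in DMSO, 5.46% to 6.48% in XAV939 and 10.7% to 12.1% in IWR-1. *Col2a1* was the largest single part of the collagen sum. Its mean CPM was 23784 of 53245 in DMSO, 34208 of 57815 in XAV939 and 74937 of 110983 in IWR-1. In the siRNA table it was 68068 of 112315 in siCtrl and 105947 of 160277 in siTnks/2. Set against each other, hydroxylase reads per 1000 collagen reads were 83.3 ± 8.51 (SD, n = 3) in DMSO, 51.6 ± 6.72 in XAV939 and 26.6 ± 1.74 in IWR-1. The ratio of XAV939 to DMSO was 0.620, with no overlap (exact permutation p = 0.1, the smallest possible). In the siRNA table the hydroxylase reads per 1000 collagen reads went from 26.8 ± 1.18 in siCtrl to 21.1 ± 1.46 in siTnks/2, a ratio of 0.786 (exact permutation p = 0.1, the smallest possible). There the 8 hydroxylase genes took 2867 to 3268 CPM in siCtrl and 3004 to 3928 in siTnks/2, overlapping but higher in each same-numbered pair. Collagen reads ran from 10.6% to 12.6% in siCtrl and from 13.4% to 18.3% in siTnks/2, where the 18.3% was that of replicate 2.

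The collagen list held changes in both directions. With XAV939, where 7.57% of all genes were higher and 9.85% lower, 5 of 20 rose, among them *Col10a1* (log2 fold change 1.38, edgeR adjusted p = 0.000122) and *Col27a1* (1.53, adjusted p = 0.000427), and 5 fell, among them the fibroblastic collagens *Col1a1* (-1.16, adjusted p = 0.00323) and *Col3a1* (-1.18, adjusted p = 0.00516). After knockdown 5 rose and 0 fell, beside 10.4% and 7.61% of all genes (11 and 4 with the replicate block, beside 18.1% and 16.5%), with *Col9a3*, a cartilage collagen, at 1.09 (adjusted p = 0.0114).

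**Figure D4:**
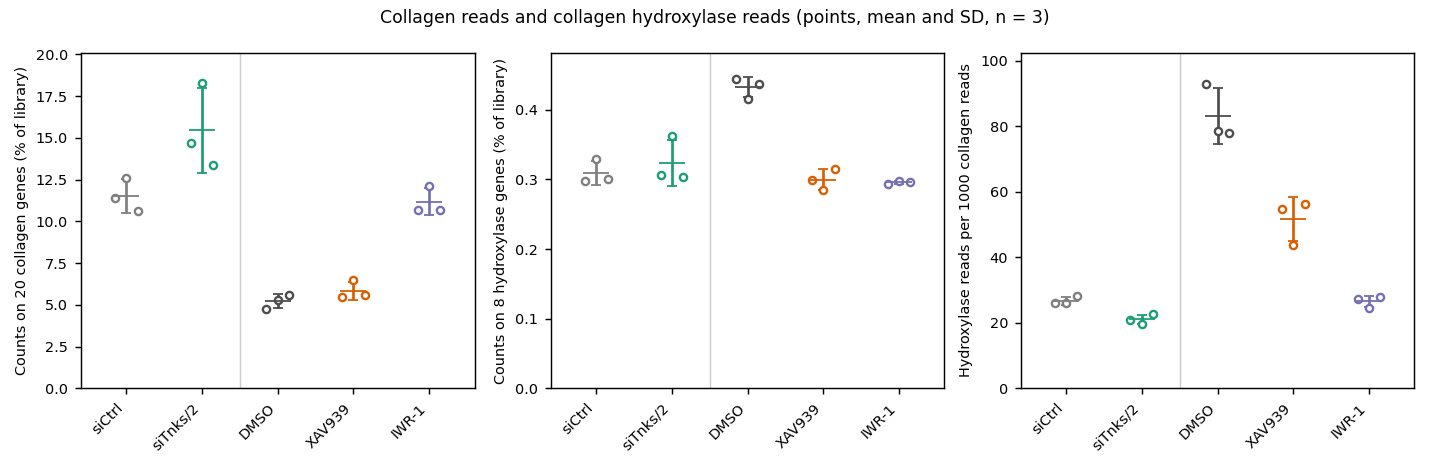
Left, counts on 20 collagen genes as % of the library; middle, counts on the 8 hydroxylase genes as % of the library; right, hydroxylase reads per 1000 collagen reads. Points are single libraries, bars the mean and SD of 3 per group, and all axes start at 0. Hydroxylase reads per 1000 collagen reads are highest in DMSO (83.3) and are 26.6 in IWR-1, 26.8 in siCtrl and 21.1 in siTnks/2.

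The partners that help collagen fold gave a mixed picture. With XAV939, where 7.57% of all genes were higher and 9.85% lower, 0 of 12 rose and 3 fell, *P4hb* (-0.46, SE 0.11, edgeR adjusted p = 0.0180), the *P3h1* relative *P3h3* (-0.35, adjusted p = 0.0219) and the collagen galactosyltransferase gene *Colgalt2* (-0.54, adjusted p = 0.0391), with a list median of -0.09. *P4hb*, the beta subunit shared by all 3 alpha subunits, stood at 3081 ± 211 CPM in DMSO, 2247 ± 32.9 in XAV939 and 2195 ± 40.6 in IWR-1 (SD, n = 3). The *P3h1* partners *Crtap* (0.18, adjusted p = 0.467) and *Ppib* (0.16, adjusted p = 0.508) did not pass. After knockdown, where 10.4% of all genes were higher and 7.61% lower, 2 of 12 rose, *Mia3* (0.35, adjusted p = 0.0153), a collagen export factor, and *Colgalt2* (1.0, adjusted p = 0.0328), and 0 fell, with a median of 0.25. The replicate block raised this count to 5, where it called 18.1% of all genes higher.

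Targets of the hypoxia-inducible factors, in a list of 17 that left out the 10 genes above, were also lower with XAV939. In that comparison 11 fell and 0 rose, beside 9.85% and 7.57% of all genes, with a median of -0.77, against 0.02 over all genes. *Egln3*, the oxygen-sensing hydroxylase, fell by 1.75 (SE 0.10, edgeR adjusted p = 1.33e-05), the peptide hormone gene *Adm* fell by 1.58 (SE 0.11, adjusted p = 3.38e-05), and *Mxi1*, a Myc antagonist, fell by 1.41 (SE 0.11, adjusted p = 4.8e-05). The list summed to 11128 to 12837 CPM in DMSO, 7853 to 8627 in XAV939 and 6345 to 6896 in IWR-1. After knockdown 2 rose and 3 fell, beside 10.4% and 7.61% of all genes (2 and 7 with the replicate block, beside 18.1% and 16.5%), with a median of -0.30, and the sum ran from 3856 to 4526 CPM in siCtrl and from 3224 to 3517 in siTnks/2. This list moved with *P4ha1*, *P4ha2*, *Plod1* and *Plod2* in the drug table, and its part in their levels was not tested.

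The nearest patterns to the 2 most abundant hydroxylases over the 9 drug libraries came from other kinds of genes. For *P4ha1* these were *Vamp4* (Pearson r of log2 CPM 0.990), *Dach1* (0.988) and *Snx25* (0.986). *Plod2* was followed most closely by *Fyttd1* (0.990), *Klf6* (0.987) and *Tmem263* (0.986). The points share 3 groups and 3 replicate numbers, and no test applies.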

How the data were processed

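The data are RNA sequencing of 15 libraries of poly(A) RNA (TruSeq Stranded mRNA kit, HiSeq sequencer). The deposited values are raw read counts per Entrez gene. Per the submitters' processing notes the authors used Trimmomatic 0.32, TopHat2 2.0.13 and HTSeq 0.6.1p1 with mm10. Neither the annotation nor the strandedness used for counting is given in the sources used here, so genes with overlapping spans may share or lose reads. Symbols came from RefSeq (24051 of 24134 IDs matched), and exon lengths from the annotation provided for mm10.

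Counts were analyzed in R 4.3.3 with edgeR 4.0.16 (filterByExpr, TMM, quasi-likelihood F test) on the whole table, with groups as the only term, and p-values were Benjamini-Hochberg adjusted over all genes tested (13672 siRNA, 13873 drug, 14271 joint), with 0.05 as the threshold. Log2 fold changes used a prior count of 2, and an SE is the fitted change over the root of F. The script was tested on simulated data. Alternatives were RLE and upper-quartile scaling, no filter, at least 10 counts in every library, DESeq2 1.42.0, adding the replicate block, fitting 2 groups alone and leaving out each library.

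Replicate numbers in the labels were checked as a pairing. After removing group means, same-numbered libraries correlated at 0.143 to 0.553 (9 drug pairs) and 0.424 to 0.519 (3 siRNA pairs), all above 0.1. Differently numbered libraries correlated at -0.489 to 0.318 (18 drug pairs) and -0.409 to 0.0972 (6 siRNA pairs). The ranges thus overlap in the drug table but not in the siRNA table. The main fits and the exact permutation tests leave the replicate number out. Results with the replicate block are given beside many of the main fits. The study states 3 biological replicates per group.

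The 10 genes, the lists and the naming rule were chosen with earlier results of these data known. Named genes are the 10, *Tnks* and *Tnks2*, the neighbors of *Gulo* and the 3 closest patterns to *Gulo*, *P4ha1* and *Plod2*. In each list, up to 3 each way with the smallest p among those passing were named too. *Rgn*, *Slc23a1*, *Slc2a2*, *Akr1a1*, *Crtap*, *Ppib*, *Pecam1*, *Cdh5* and the hepatocyte genes were named after their values were seen.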

Additional observations from a re-analysis of the deposited data

Results flagged for a closer look

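The effect of XAV939 and the effect of the knockdown differed for 2 genes in a test of the difference itself, an interaction term in edgeR over the 15 libraries. For *Plod1* the difference was -0.92 on the log2 scale (SE 0.21, adjusted p = 0.0101), with -0.71 for XAV939 against DMSO and 0.19 for knockdown against siCtrl. For *Plod2* it was -1.17 (SE 0.21, adjusted p = 0.00289), with -0.84 and 0.31. All 3 XAV939 libraries lay below all 3 DMSO libraries for both genes, and all 3 knockdown libraries lay above siCtrl for *Plod2*. Without siTnks/2 replicate 2 the differences were -0.72 for *Plod1* (adjusted p = 0.0184) and -1.02 for *Plod2* (adjusted p = 0.00432). The treatment, the control and the table changed together here and cannot be told apart.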

How the results depend on the processing

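The count of genes called after knockdown was 0 in edgeR, 1 with DESeq2 and 4 with the replicate block, and 0 to 2 when single libraries were left out, reaching 2 without siTnks/2 replicate 2 and 1 without siTnks/2 replicate 3. Between IWR-1 and XAV939 it was 2, with 1 when no filter was applied, 4 with the replicate block and 1 to 3 when single libraries were left out. The difference between the XAV939 and knockdown effects went from 2 genes to 6 with the replicate block and stayed at 2 to 3 when single libraries were left out. With XAV939 the count was 4, with 5 with the replicate block, which called 33.4% of all genes, and 3 to 5 when single libraries were left out. In the fits without single libraries the share of all genes called also moved, from 4.40% to 20.8% after knockdown, 9.45% to 17.7% with XAV939, 9.57% to 21.7% between the drugs and 8.60% to 15% for the difference between effects. Beside the calls named in the report, the replicate block changed no other call of the 10 genes in these 4 comparisons.

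Small differences changed sign. After knockdown *Slc23a2* went from -0.07 to 0.00 without siCtrl replicate 3 and 0.03 without siTnks/2 replicate 2, and *Plod3* from 0.02 to -0.03 without siCtrl replicate 1, -0.01 without siCtrl replicate 3 and -0.08 without siTnks/2 replicate 2. When single libraries were left out the first ranged from -0.14 to 0.03 and the second from -0.08 to 0.10. Between IWR-1 and XAV939, *P4ha1* went from 0.00 to -0.02 with upper-quartile scaling, -0.06 without XAV939 replicate 2 and -0.02 without IWR-1 replicate 2, within a range of -0.06 to 0.07. The cause was not tested. *Gulo* against DMSO depended on single reads, with fitted log2 fold changes of 3.99 to 5.71 for XAV939 and 5.80 to 7.52 for IWR-1 when single libraries were left out, and the filter of 10 counts in every library removed it from the drug table. Depth limits *Gulo*, which had at most 3 reads in a DMSO library.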

Other observations

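Enzymes that cut and cross-link collagen after hydroxylation moved in both directions with XAV939, with 3 of 11 higher and 5 lower, beside 7.57% and 9.85% of all genes. *Loxl3* (log2 fold change 1.21, SE 0.13, edgeR adjusted p = 0.000206) and *Loxl4* (0.66, SE 0.19, adjusted p = 0.0362) rose, whereas *Lox* (-1.34, SE 0.20, adjusted p = 0.00146) and *Loxl2* (-0.87, SE 0.13, adjusted p = 0.00123) fell. All 4 are lysyl oxidases, which use the lysines and hydroxylysines that the Plod enzymes leave. *Pcolce2*, an enhancer of procollagen cutting, rose with XAV939 (1.34, SE 0.19, adjusted p = 0.000987) and after knockdown (0.96, SE 0.07, adjusted p = 0.00274). After knockdown 3 of 11 rose and 0 fell, beside 10.4% and 7.61% of all genes, *Bmp1* (0.38, adjusted p = 0.0109) and *Adamts14* (0.60, adjusted p = 0.0156) being the others, and the replicate block gave 5 and 2, beside 18.1% and 16.5%.

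Dioxygenases outside the collagen pathway use the same cofactors. Of 11 listed and 10 tested, 4 fell and 0 rose with XAV939, beside 9.85% and 7.57% of all genes. The falls were led by *Egln3*, which is also in the hypoxia target list (-1.75, SE 0.10, edgeR adjusted p = 1.33e-05), *Egln1* (-0.80, SE 0.11, adjusted p = 0.000751) and the DNA demethylase gene *Tet1* (-1.08, SE 0.16, adjusted p = 0.00130). The list median was -0.17, against 0.02 over all genes. After knockdown 1 rose, *Hif1an* (0.29, SE 0.08, adjusted p = 0.0440), and 0 fell, beside 10.4% and 7.61% of all genes, with a median of 0.06. The replicate block gave 3 and 1, beside 18.1% and 16.5% of all genes.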
